A study of Acomys cahirinus and Mus musculus with 24 samples.

Results

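The genes described here are 38 genes of macrophage identity and activation, chosen by symbol from a fixed list. They cover the growth factor and receptor that maintain macrophages, identity and effector genes, Fc receptors and their adaptors, pattern recognition and scavenger receptors, tissue-resident and efferocytosis genes, lipid-associated genes and polarisation genes. All 38 had a row in the mouse count table (23998 features without spike-in RNAs). The spiny mouse count table (144634 features) had a row for 34 of them, and so did the table that joins both species (14514 features). Marco, Folr2, Chi3l3 (deposited as Chil3) and Retnla had a row in the mouse table alone, and F4/80 is deposited under its older symbol Emr1 (now Adgre1).

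The study measured RNA by sequencing in dorsal skin of adult Mus musculus of the outbred CD-1 strain and of adult Acomys cahirinus, a spiny mouse known for healing skin wounds with little scar. The groups were unwounded skin (day 0) and full-thickness excisional wounds of 8 mm, collected 7 or 14 days after wounding, with no other treatment. Each species and day had 4 libraries, except Mus day 0 with 3 (replicates 1, 2 and 4, since replicate 3 was dropped by the submitters on quality grounds). No label states that libraries of 1 group stem from different animals, and the p-values therefore cover only the spread among libraries, which may be technical.

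Macrophages are phagocytes that depend on signalling through the receptor Csf1r, whose ligands are Csf1 and Il34. In wounded skin, monocytes enter from blood and become macrophages beside those that live in the dermis, and together they clear debris, dying cells and microbes and release signals to epidermis, vessels and fibroblasts. Mouse macrophages are often described by marker genes: Nos2 for inflammatory activation, Arg1, Chi3l3, Retnla and Mrc1 for activation by interleukins of the allergic type, and Cd163, Timd4, Folr2 and Vsig4 for resident or scavenging cells.

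Total counts per library were 9339214 to 13188137 in the mouse table, 13090599 to 18470245 in the Acomys table and 5980683 to 9853153 in the shared table. Levels are given in CPM, a gene's count relative to the TMM-scaled library total, and are compared between groups and not between genes. A change is a log2 fold change with its SE after ±. Rose and fell are used at an adjusted p under 0.05, from edgeR's quasi-likelihood test with Benjamini-Hochberg adjustment across every feature tested. Changes within a species come from that species' table, and comparisons of the species from the shared table. The comparisons of day 7 and of day 14 with day 0 share the day 0 libraries. These are whole pieces of skin, so more cells of a type and more RNA per cell cannot be told apart. Mus day 7 replicate 3 and day 14 replicates 2 and 3 stand apart through low skeletal muscle transcripts: the summed CPM of 6 muscle markers was 52.5, 35.0 and 31.5 in them, against 1055 to 8583 in the other Mus libraries.

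One member cannot be followed by its own row in Acomys, and its sequence shows how near its neighbour is. Lyz2, the lysozyme of mouse macrophages and neutrophils, lies on chromosome 10 at 117277331-117282321 (minus strand, GRCm38, GENCODE vM21), and Lyz1, the lysozyme of intestinal Paneth cells, lies beside it at 117287797-117292868. The mouse coding sequences of Lyz1-201 and Lyz2-201 are both 444 bases long without the stop codon and 95.0% identical, with 22 bases that differ. Bases 1 to 300 of each are shown, and capitals mark the 20 of these 22 bases that lie in them.
Lyz2: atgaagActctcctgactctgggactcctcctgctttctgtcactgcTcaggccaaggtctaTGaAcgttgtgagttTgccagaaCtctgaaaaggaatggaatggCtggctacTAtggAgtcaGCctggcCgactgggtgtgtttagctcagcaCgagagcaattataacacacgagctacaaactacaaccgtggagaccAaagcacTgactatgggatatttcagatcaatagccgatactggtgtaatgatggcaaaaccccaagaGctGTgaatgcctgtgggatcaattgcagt
Lyz1: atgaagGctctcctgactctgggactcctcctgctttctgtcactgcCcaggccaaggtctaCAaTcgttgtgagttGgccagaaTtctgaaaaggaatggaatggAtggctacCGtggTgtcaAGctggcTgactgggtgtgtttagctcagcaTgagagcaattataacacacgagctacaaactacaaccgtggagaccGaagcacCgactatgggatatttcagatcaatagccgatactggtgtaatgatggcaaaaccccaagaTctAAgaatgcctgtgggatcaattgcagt
Of the 50-base stretches of Lyz2, 20.3% occur unchanged in Lyz1. Shared stretches also link Fcgr3 with Fcgr2b (22.1% of the stretches of Fcgr3) and Chi3l3 with Chil4 (20.7%), so the split of counts within these pairs is uncertain.

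Most of the 38 genes were higher in wounds than in skin in both species. In Mus at day 7, 29 rose, 2 fell and 7 did not pass, with a median change of 2.11 against 0.00793 over all features, of which 57.6% passed (29.3% higher). At day 14, 28 rose and 1 fell, with a median of 1.41, where 45.9% of all features passed (23.2% higher). In Acomys 33 of the 34 genes passed the filter on low counts. At day 7, 27 of these rose and 3 fell, with a median of 2.41 against -0.0307 over all features, of which 43.1% passed (21.2% higher). At day 14, 22 rose and 1 fell, with a median of 1.36, where 22.2% of all features passed (11.7% higher). Of the 31 and 29 calls in Mus at the 2 days, 28 and 23 held in each fit that left out 1 library, and of the 30 and 23 in Acomys, 29 and 16. The calls at day 14 that did not hold were Aif1, Arg1, Cd5l, Csf1r and Itgam in both species, with Mertk in Mus (adjusted p up to 0.0964) and Emr1 and Ly86 in Acomys (up to 0.158). The libraries whose absence lost a call were day 0 replicates 1, 2 and 4 and day 14 replicates 1, 3 and 4 in Mus, and day 0 replicates 2, 3 and 4 and any of day 14 in Acomys. Without the 3 Mus libraries poor in muscle transcripts, a choice made after seeing the data, 32 members passed in Mus at day 7 and 31 at day 14.

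The summed CPM of the members shows the same time course in both species, highest at day 7 and between skin and day 7 at day 14. In Mus skin the sum was 1848 to 2053, in day 7 wounds 6112 to 8326 and in day 14 wounds 4047 to 5424. With 34 genes, Acomys had sums of 739.7 to 1210 in skin, 3579 to 5870 in day 7 wounds and 2087 to 3323 in day 14 wounds. No 2 days overlapped within a species. The counts behind the sum differed: Lyz2, Spp1 and Cd14 gave 19.9%, 9.5% and 8.95% of it in Mus at day 7, and Mrc1, Cd163 and Lgmn gave 26.1%, 13.5% and 10% in Acomys at day 7. These shares are of counts and are not scaled for transcript length.

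**Figure D1:**
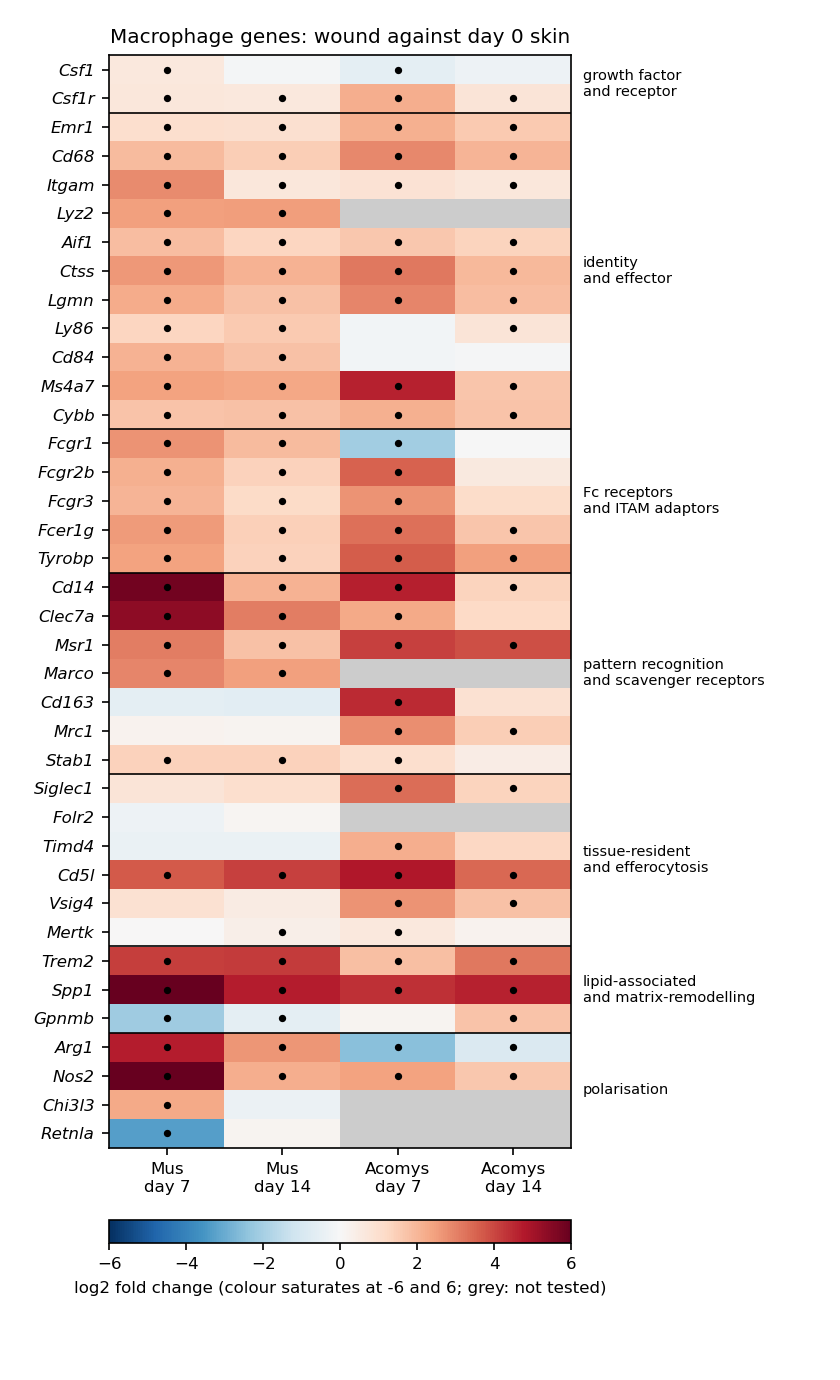
Log2 fold change of each wound group against unwounded skin of the same species (columns) for the 38 members in order of role (rows); a black point marks an adjusted p under 0.05 and grey a gene not tested. Most cells are red in both species, while Fcgr1 and Arg1 are blue in Acomys at day 7, Gpnmb and Retnla are blue in Mus at day 7, and Cd163, Mrc1 and Siglec1 carry points in Acomys and none in Mus (fit without the replicate block).

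Csf1, the growth factor of macrophages, and Csf1r, its receptor, moved apart in Acomys and together in Mus. Csf1 was at 74.9, 79.7 and 66.4 CPM in Mus skin and at 125, 90.5, 103 and 144 CPM at day 7, so the groups did not overlap (0.65 ± 0.152, adjusted p = 0.00389). In Acomys it was at 54.7, 36.8, 50.2 and 44.3 CPM in skin and at 32.5, 31.9, 29.0 and 30.1 CPM at day 7 (-0.59 ± 0.133, adjusted p = 0.00131). All 4 wound libraries were below all 4 skin libraries. Between the species the changes differed by -1.36 ± 0.23 (adjusted p = 9.13e-05). In the shared table Csf1 was lower in Acomys at each day, most at day 7 (-2.14 ± 0.16, adjusted p = 1.43e-10).

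Csf1r rose in both species at day 7, by 0.69 ± 0.174 in Mus (adjusted p = 0.00613) and by 2.16 ± 0.242 in Acomys (adjusted p = 2.05e-06). Mus skin had 152, 164 and 183 CPM against 333, 197, 239 and 302 CPM at day 7. Acomys skin had 103, 40.3, 51.3 and 77.1 CPM against 233, 326, 282 and 376 CPM at day 7. The change was larger in Acomys by 1.34 ± 0.312 (adjusted p = 0.00214), from a lower level in skin (-1.06 ± 0.229, adjusted p = 0.000373). At day 14 the Acomys libraries were at 97.3 to 131 CPM. The day 14 rise against skin was lost without Mus day 0 replicate 1 or 2 (adjusted p up to 0.06), and in Acomys without day 0 replicate 2 or 3 or day 14 replicate 2, 3 or 4 (up to 0.103).

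Among the 11 identity and effector genes, all 11 were higher than in skin in Mus at day 7 and at day 14, and 8 of 10 tested rose in Acomys at day 7. Of all features 29.3% and 23.2% were higher in Mus at these days and 21.2% in Acomys at day 7. Cd68, a glycoprotein of macrophage lysosomes, was at 21.1, 24.4 and 28.8 CPM in Mus skin and at 107, 83.9, 89.4 and 87.3 CPM at day 7 (1.89 ± 0.192, adjusted p = 1.44e-05). In Acomys it went from 6.56, 5.26, 4.98 and 9.72 CPM to 40.5, 56.6, 44.2 and 55.2 CPM (2.88 ± 0.276, adjusted p = 4.82e-07). The groups did not overlap in either species. The lysosomal proteases Ctss and Lgmn, which cut antigens and internalised proteins, rose by 2.58 ± 0.381 and 2.21 ± 0.13 in Mus and by 3.17 ± 0.362 and 2.93 ± 0.235 in Acomys. Emr1, the surface receptor F4/80, rose by 0.99 ± 0.229 in Mus and 2.13 ± 0.467 in Acomys, and Cybb, the catalytic subunit of the phagocyte oxidase, by 1.71 ± 0.38 and 2.14 ± 0.383. Aif1, a calcium-binding protein of phagocytes, rose by 1.86 ± 0.405 and 1.63 ± 0.362. For Emr1, Ctss, Lgmn, Cybb and Aif1 the difference of the day 7 changes did not pass (adjusted p from 0.0552 for Lgmn to 0.652 for Aif1).

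Itgam, Ms4a7 and Ly86 behaved differently in the 2 species. Itgam, the integrin alpha M of macrophages and neutrophils, was at 32.4, 32.1 and 39.7 CPM in Mus skin, at 328, 185, 206 and 273 CPM at day 7 and at 47.8 to 65.3 CPM at day 14. The Acomys values were 24.4, 20.6, 19.7 and 33.8 CPM in skin and 54.9, 39.7, 42.1 and 44.1 CPM at day 7. It rose by 2.84 ± 0.208 in Mus (adjusted p = 1.78e-06) and by 0.88 ± 0.198 in Acomys (adjusted p = 0.00132), a difference of -1.92 ± 0.31 (adjusted p = 6.45e-05). Neutrophil transcripts also rose at day 7 in both species: 10 of 11 tested neutrophil markers rose and 1 fell in Mus, and 8 of 10 rose and 1 fell in Acomys. Of all features 29.3% rose in Mus and 21.2% in Acomys. Their summed level was 71.7 to 92.9 CPM in Mus skin, 1388 to 3663 CPM at day 7 and 141.7 to 375.3 CPM at day 14. In Acomys it was 50.7 to 107.6, 1608 to 1921 and 64.5 to 103.7 CPM. At day 14 the Acomys neutrophil sum was thus back in the range of skin, while Itgam, at 28.2 to 55.0 CPM, overlapped its day 7 values. Of the 14 listed markers Stfa1 was at 0 counts in Mus skin and Elane at 0 in Mus at day 7, and 10 had a row in Acomys, none at 0. Neutrophils also carry Cd14, Clec7a, Fcer1g and Tyrobp, described below, and the part of neutrophils in the values of these genes and of Itgam was not tested.

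Ms4a7, a membrane protein found mainly on macrophages, rose in both species and then fell back in Acomys. Mus libraries were at 11.0, 7.57 and 11.7 CPM in skin, at 43.5 to 75.4 CPM at day 7 and at 43.6 to 56.0 CPM at day 14. In the Acomys libraries the values were 4.50, 1.96, 0.930 and 4.25 CPM in skin, 43.3, 77.0, 84.8 and 81.8 CPM at day 7 and 6.32, 10.04, 12.4 and 8.66 CPM at day 14. The fall from day 7 to day 14 was -2.94 ± 0.377 in Acomys (adjusted p = 0.000103), and the change differed from that in Mus by -2.92 ± 0.369 (adjusted p = 1.42e-05). Ly86, a partner of a Toll-like receptor relative, rose in Mus at day 7 by 1.28 ± 0.286 and was at 4.81, 3.77, 2.59 and 5.26 CPM in Acomys skin against 2.81, 3.37, 4.69 and 3.68 CPM at day 7. These Acomys groups overlapped (adjusted p = 0.628), and the difference of the changes passed (-1.56 ± 0.408, adjusted p = 0.00508).

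Lyz2 rose in Mus by 2.47 ± 0.188 at day 7 (adjusted p = 2.01e-06), from 281, 238 and 240 CPM to 1382, 1008, 1390 and 1824 CPM. In Acomys the row named Lyz2 held 1 count in 12 libraries, below the filter, and the row named Lyz1 held 2704 to 15508 counts per library. That Lyz1 row was at 253, 283, 180 and 291 CPM in Acomys skin, at 365, 1068, 904 and 573 CPM at day 7 and at 558, 908, 685 and 544 CPM at day 14. It rose by 1.53 ± 0.294 at day 7 (adjusted p = 0.000747). In the shared table Lyz2 was lower in Acomys skin by -7.75 ± 0.303 by its own row, and by the sum of the 2 rows, a choice made after seeing the data, the difference was 0.20 (adjusted p = 0.467). With the rows summed, Acomys was lower at day 7 by -0.78 (adjusted p = 0.00285) and at day 14 by -0.97 (adjusted p = 0.00044).

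**Figure D2:**
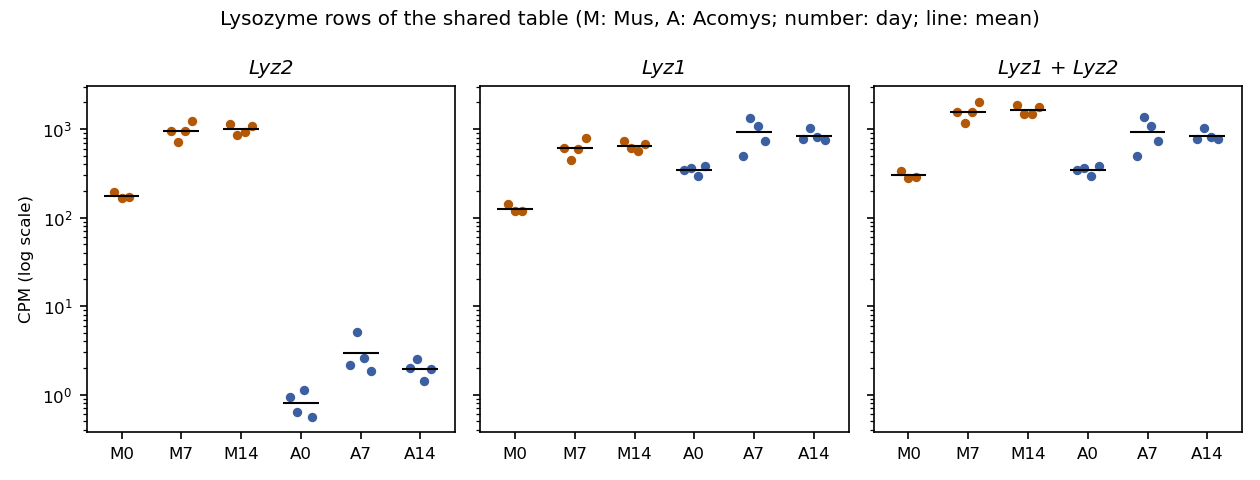
CPM on a log axis of Lyz2, of Lyz1 and of their sum in each library of the shared table, by species and day; points are libraries and lines are group means. The Lyz2 points of Acomys lie far below those of Mus, the Lyz1 points of Acomys skin lie above those of Mus skin, and the sums in skin overlap (281.9 to 339.2 CPM in Mus, 297.7 to 381.5 CPM in Acomys).

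The Cd84 row shows a similar limit. Cd84, a receptor of the SLAM family on leukocytes, rose in Mus at day 7 by 2.07 ± 0.176 (adjusted p = 4.24e-06), from 28.5, 25.8 and 29.3 CPM to 138, 85.0, 109 and 136 CPM. In Acomys the row named Cd84 was at 10.7 to 17.1 CPM in skin, 10.3 to 12.6 CPM at day 7 and 9.11 to 14.54 CPM at day 14, all overlapping (adjusted p = 0.497 at day 7). The Acomys assembly holds 1 further feature without a symbol whose best protein match is human CD84 (35.22% identity). That feature held 23, 10, 7 and 16 counts in skin, 117, 202, 172 and 236 counts at day 7 and 48, 50, 96 and 81 counts at day 14. It rose by 3.57 ± 0.333 at day 7 (adjusted p = 9.65e-08) and was higher at day 14 by 2.11 (adjusted p = 0.000168). The shared table held 5.41% of the Cd84 counts of the mouse table, against a median of 73.8% over the members without Lyz2, and the species differences of Cd84 listed below carry that limit.

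All 5 Fc receptor and adaptor genes rose in Mus at day 7 and at day 14, beside 29.3% and 23.2% of all features. In Acomys 4 rose at day 7, beside 21.2% of all features, and Fcgr1 fell. Fcgr1, the high-affinity receptor for immunoglobulin G (chromosome 3 at 96282909-96293969), was at 4.08, 3.49 and 6.01 CPM in Mus skin, at 51.5, 15.2, 18.4 and 34.0 CPM at day 7 and at 22.0, 10.8, 11.9 and 22.5 CPM at day 14. In Acomys it was at 5.56, 3.53, 2.79 and 6.21 CPM in skin, at 0.574, 0.620, 2.04 and 0.982 CPM at day 7 and at 4.11, 3.502, 5.70 and 4.62 CPM at day 14. Every Mus day 7 library was above, and every Acomys day 7 library below, all skin libraries of its species. The change was 2.71 ± 0.488 in Mus (adjusted p = 0.00086) and -2.09 ± 0.354 in Acomys (adjusted p = 8.92e-05). Between the species the change differed by -4.98 ± 0.617 (adjusted p = 3.06e-06). The Acomys day 7 values rest on 9 to 34 counts per library.

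Fcgr2b, the inhibitory Fc receptor, rose in both species at day 7 and returned closer to skin in Acomys. Mus libraries were at 21.5, 27.1 and 20.8 CPM in skin, 135, 92.6, 92.1 and 91.7 CPM at day 7 and 54.4 to 71.7 CPM at day 14. Acomys samples gave 7.12, 4.79, 3.45 and 6.88 CPM in skin, 43.4, 77.4, 69.0 and 71.7 CPM at day 7 and 7.35, 9.18, 9.83 and 7.24 CPM at day 14. In Acomys the rise at day 7 was 3.55 ± 0.23 (adjusted p = 9.25e-10), larger than in Mus by 1.72 ± 0.252 (adjusted p = 1.95e-05), and the day 14 level did not pass against skin (adjusted p = 0.0686). In Mus it was higher at day 14 than in skin, by 1.38 ± 0.168 (adjusted p = 8.04e-05). The fall from day 7 to day 14 was larger in Acomys by 2.33 on the log2 scale (-2.33 ± 0.234, adjusted p = 8.2e-07).

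The signalling adaptors Fcer1g and Tyrobp, which carry the ITAM motif that couples Fc and lectin receptors to kinases, rose in both species. Fcer1g rose by 2.54 ± 0.28 in Mus and 3.30 ± 0.222 in Acomys at day 7, a difference that did not pass (adjusted p = 0.174). Tyrobp rose by 2.41 ± 0.254 and 3.62 ± 0.366, and its difference of 1.10 ± 0.419 (adjusted p = 0.046) was lost in 11 of the fits that left out 1 library: without Acomys day 0 replicate 2 or 3, day 7 replicate 2, 3 or 4, replicate 1, 2 or 4 of Mus skin, or replicate 2, 3 or 4 of the Mus day 7 group (adjusted p up to 0.0935). Fcgr3, an activating low-affinity receptor, rose by 2.05 ± 0.172 in Mus. In Acomys its row held 12 counts in skin, 89 at day 7 and 30 at day 14, and it rose by 2.70 ± 0.404 at day 7. The shared table held 20.1% of its Mus counts, so no species level of Fcgr3 is singled out, and the counts of members below include its row with that limit.

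Of the 7 pattern recognition and scavenger receptors, 5 rose in Mus at day 7, and all 6 with a row rose in Acomys, beside 29.3% and 21.2% of all features. The lipopolysaccharide co-receptor Cd14 was at 12.4, 10.5 and 11.3 CPM in Mus skin, at 811, 730, 418 and 560 CPM at day 7 and at 65.9, 21.0, 22.5 and 82.0 CPM at day 14. Acomys libraries were at 2.81, 2.20, 2.06 and 2.63 CPM in skin, at 36.1, 65.6, 96.02 and 49.3 CPM at day 7 and at 5.29 to 7.71 CPM at day 14. It rose at day 7 by 5.79 ± 0.586 in Mus (adjusted p = 2.02e-05) and 4.66 ± 0.274 in Acomys (adjusted p = 5.66e-10), with no overlap in either species. The difference of the changes did not pass (adjusted p = 0.0896), and the level was lower in Acomys at all 3 days, at day 7 by -3.57 ± 0.377 (adjusted p = 6.79e-08).

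Clec7a, the lectin Dectin-1 that binds fungal glucans, was at 1.33, 1.78 and 4.92 CPM in Mus skin and at 148, 76.8, 80.4 and 144 CPM at day 7. In Acomys skin it was at 4.44, 2.12, 0.797 and 7.36 CPM, and at 7.12, 16.9, 31.2 and 16.6 CPM at day 7, where 1 wound library lay below the highest skin library. The change was 5.36 ± 0.481 in Mus and 2.28 ± 0.612 in Acomys (adjusted p = 8.71e-06 and 0.0116), and the difference passed (-3.30 ± 0.752, adjusted p = 0.00205). Msr1, the class A scavenger receptor, rose in both species and overlapped between the wound days in Acomys, with 165 to 288 CPM at day 7 and 113.1 to 316 CPM at day 14, against 7.504 to 28.8 CPM in skin. In Mus it was at 8.61 to 13.1, 69.9 to 114 and 28.6 to 42.6 CPM at the 3 days. Its day 14 change was larger in Acomys by 2.17 ± 0.552 (adjusted p = 0.00702). Marco, a related receptor measured in Mus alone, rose by 2.94 ± 0.416 from 3 to 7 counts per library in skin to 18 to 44 at day 7.

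Cd163, the scavenger receptor for haptoglobin-haemoglobin complexes (chromosome 6 at 124304656-124330527), gave the largest positive species difference at day 7. The Acomys values were 49.4, 16.2, 21.4 and 30.4 CPM in skin, 473, 605, 605 and 963 CPM at day 7 and 41.4, 53.1, 63.1 and 63.3 CPM at day 14. Mus libraries were at 34.4, 63.9 and 62.6 CPM in skin, at 28.9, 35.8, 52.6 and 25.0 CPM at day 7 and at 26.0, 27.9, 27.3 and 59.0 CPM at day 14. All 4 Acomys day 7 libraries lay far above every other library of either species, while the Mus groups overlapped. The change at day 7 was 4.49 ± 0.356 in Acomys (adjusted p = 4.03e-07) and -0.59 ± 0.356 in Mus (adjusted p = 0.179). Between the species the change differed by 4.93 ± 0.493 (adjusted p = 3.03e-07), and from day 7 to day 14 Cd163 fell by 3.58 ± 0.34 in Acomys (adjusted p = 6.31e-06).

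The mannose receptor Mrc1 (CD206, chromosome 2 at 14229392-14332057) was also highest at day 7 in Acomys. Its libraries were at 267, 123, 134 and 211 CPM in skin, at 875, 1201, 1336 and 1692 CPM at day 7 and at 426, 697, 449 and 464 CPM at day 14. In Mus they were at 402 to 459.9 CPM in skin, 364 to 633 CPM at day 7 and 362 to 531 CPM at day 14, all overlapping (adjusted p = 0.408 at day 7). Mrc1 rose by 2.80 ± 0.269 in Acomys (adjusted p = 5.61e-07), and the difference from Mus was 2.51 ± 0.32 (adjusted p = 3.56e-06). At day 14 the Acomys level was still higher than in skin by 1.47 ± 0.257 (adjusted p = 0.000617).

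Stab1, a scavenger receptor shared by macrophages and sinusoidal or lymphatic endothelium, rose in Mus at both days by 1.41 ± 0.155 and 1.40 ± 0.155. In Acomys its rise at day 7 (1.01 ± 0.37, adjusted p = 0.0444) was lost without day 0 replicate 2, 3 or 4 or day 7 replicate 1 or 4 (adjusted p up to 0.117). Of 8 endothelial and lymphatic markers, 5 rose and 1 fell in Mus at day 7, where 57.6% of all features passed (29.3% higher). Their summed levels were 173.6 to 193.7 CPM in skin and 540.4 to 677 CPM at day 7. In Acomys 5 of 8 rose and 1 fell, where 43.1% of all features passed (21.2% higher). The sums there were 240.2 to 304.2 and 466.5 to 616.7 CPM. No marker was at 0 counts, and the part of these cells in the Stab1 values was not tested.

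Of the tissue-resident and efferocytosis genes, 1 of 6 rose in Mus at day 7 and all 5 with a row rose in Acomys. Of all features 29.3% and 21.2% rose. The 2 sets differ by Folr2, which did not pass in Mus and had no row in Acomys. Siglec1, a sialic acid receptor of resident macrophages also known as an interferon-responsive gene, was at 27.7, 28.1 and 28.8 CPM in Mus skin and at 82.5, 34.0, 34.7 and 43.2 CPM at day 7 (0.79 ± 0.478, adjusted p = 0.184). With the replicate number as a block, the higher level in Mus passed at day 7 (adjusted p = 0.045) and at day 14 (adjusted p = 0.0298, against 0.108 without the block). Acomys skin had it at 12.1, 6.04, 7.17 and 8.71 CPM and day 7 wounds at 58.4, 102, 51.5 and 142 CPM (3.37 ± 0.345, adjusted p = 4.26e-06). The Mus day 7 libraries were all above skin, most of them narrowly, and those of Acomys were well separated from skin. Between the species the change differed by 2.48 ± 0.614 (adjusted p = 0.00393).

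Vsig4, the complement receptor CRIg, was at 0.532, 1.56 and 1.01 CPM in Mus skin and at 1.70, 1.75, 2.45 and 1.96 CPM at day 7 (0.90 ± 0.431, adjusted p = 0.094), which rest on 6 to 21 counts per library in skin and 19 to 31 at day 7. In the Acomys libraries the values were 2.62, 2.51, 1.46 and 3.31 CPM in skin, 9.93, 23.4, 12.4 and 18.8 CPM at day 7 (2.70 ± 0.317, adjusted p = 2.91e-06) and at day 14 the gene was higher than in skin by 1.74 ± 0.317. Its species difference of the day 7 change (1.63 ± 0.596, adjusted p = 0.0376) was lost without Acomys day 0 replicate 1, 2 or 3, day 7 replicate 2 or 4, replicate 2 or 4 of Mus skin, or replicate 1, 2 or 4 of the Mus day 7 group (adjusted p up to 0.256). Timd4, a phosphatidylserine receptor of resident macrophages, had 31, 3, 9 and 8 counts in the Acomys skin libraries and 36, 114, 60 and 32 at day 7. It rose there by 2.16 ± 0.597 (adjusted p = 0.0102), and in Mus it was at 5.76 to 7.89 CPM in skin and 2.59 to 6.70 CPM at day 7 (adjusted p = 0.55). Its difference between species (2.65 ± 0.848, adjusted p = 0.0191) was lost without Acomys day 7 replicate 2 or replicate 4 of the Mus day 0 group (up to 0.0524). Folr2, the folate receptor of resident macrophages, was measured in Mus alone at 25.6 to 32.0 CPM in skin and 15.6 to 32.6 CPM at day 7 (adjusted p = 0.537).

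Cd5l, a secreted scavenger protein of tissue macrophages, rose in both species with a wide spread. In Mus it was at 0.798, 0.520 and 0.362 CPM in skin and at 0.890, 1.57, 12.9 and 13.3 CPM at day 7 (3.67 ± 1.18, adjusted p = 0.022), a call lost without day 0 replicate 1, 2 or 4 or day 7 replicate 3 (adjusted p up to 0.07). The Mus skin values rest on 5 to 9 counts per library. Acomys skin had it at 1.25, 0.392, 1.06 and 0.472 CPM and day 7 wounds at 13.5, 60.4, 10.6 and 5.89 CPM (4.78 ± 0.841, adjusted p = 0.00102). Wound libraries of both species lay above skin at day 7, in Mus by little in replicates 1 and 2. Mertk, the receptor tyrosine kinase that recognises dying cells through Gas6 and Pros1, was at 30.9 to 31.9 CPM in Mus skin and 27.4 to 33.9 CPM at day 7 (adjusted p = 0.996). In Acomys it rose by 0.65 ± 0.126 (adjusted p = 0.000328), from 105, 100, 125 and 99.6 CPM to 166, 171, 148 and 189 CPM, a difference of 0.94 ± 0.206 from Mus (adjusted p = 0.00115).

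Trem2, a lipid-sensing receptor that signals through Tyrobp, was 0.798, 1.56 and 1.88 CPM in Mus skin, 19.5, 23.1, 29.6 and 30.5 CPM at day 7 and 28.01, 15.8, 26.1 and 37.2 CPM at day 14. Acomys had 4.75, 4.63, 3.19 and 8.50 CPM in skin, 17.2, 25.1 and 17.7 CPM in replicates 1, 2 and 4 at day 7, with replicate 3 below these, and 37.8, 79.3, 29.9 and 40.0 CPM at day 14. The Mus wound groups overlapped, with a rise at day 7 of 4.15 ± 0.365 (adjusted p = 6.25e-06). In Acomys Trem2 rose again between day 7 and day 14 (1.33 ± 0.322, adjusted p = 0.0081). The day 7 change was larger in Mus (-2.33 ± 0.523, adjusted p = 0.00162).

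Spp1, the secreted matrix protein osteopontin, was high at both wound days. It was at 2.93, 2.82 and 2.46 CPM in Mus skin, at 747, 1006, 442 and 422 CPM at day 7 and at 63.4, 9.43, 32.3 and 181 CPM at day 14. Acomys samples gave 6.31, 8.32, 3.72 and 9.38 CPM in skin, 126, 83.3, 241 and 125 CPM at day 7 and 165, 258, 110 and 144 CPM at day 14. Spp1 fell between the wound days in Mus (-3.19 ± 0.743, adjusted p = 0.0123), and in Acomys the 2 wound days overlapped (adjusted p = 0.689). The change from day 7 to day 14 differed between the species by 3.47 ± 0.787 (adjusted p = 0.00369).

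Gpnmb, a glycoprotein of lipid-laden macrophages and of melanocytes, fell in Mus. It was at 144, 222 and 174 CPM in skin, at 39.9, 42.6, 44.6 and 38.2 CPM at day 7 (-2.12 ± 0.146, adjusted p = 1.13e-06) and at 134, 111, 137 and 104 CPM at day 14. Acomys libraries were at 99.0, 53.5, 84.3 and 70.7 CPM in skin, at 118, 67.1, 67.7 and 94.5 CPM at day 7 (adjusted p = 0.594) and at 249, 355, 165 and 245 CPM at day 14 (1.72 ± 0.247, adjusted p = 0.000112). The difference of the changes was 2.22 ± 0.357 at day 7 (adjusted p = 6.7e-05) and 2.19 ± 0.353 at day 14 (adjusted p = 0.000148). Of 6 tested melanocyte markers 4 fell and none rose in Mus at day 7, where 28.3% of all features fell. Their summed levels were 86.8 to 99.7 CPM in skin, 46.2 to 56 CPM at day 7 and 64.6 to 74.8 CPM at day 14. In Acomys 2 of 6 fell at day 7 and 3 rose at day 14, beside 21.9% and 11.7% of all features. The sums there were 63.7 to 69.5, 34.0 to 46.8 and 84.7 to 118.6 CPM. No melanocyte marker with a row was at 0 counts in any group, and the part of melanocytes in the Gpnmb values was not tested.

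Arg1, arginase 1, moved in opposite directions. It lies on chromosome 10 at 24915221-24927484. Mus libraries were at 17.4, 13.1 and 23.3 CPM in skin, at 502, 391, 582 and 393 CPM at day 7 and at 44.5, 11.1, 210.1 and 184 CPM at day 14. The Acomys values were 74.2, 105, 58.3 and 132 CPM in skin, 12.3, 18.6, 14.42 and 18.9 CPM at day 7 and 28.9, 54.2, 69.5 and 51.2 CPM at day 14. At day 7 no wound library overlapped skin in either species, on opposite sides. Arg1 changed by 4.70 ± 0.905 in Mus (adjusted p = 0.00145) and by -2.52 ± 0.292 in Acomys (adjusted p = 7.35e-06). The difference of the changes, -7.21 ± 0.864 (adjusted p = 3.73e-06), was the largest negative one among the 34 genes. In the shared table Acomys was lower at day 7 by -5.47 ± 0.615 (adjusted p = 2.25e-07). That table held 48.2% of the Acomys counts of Arg1 and 73.1% of its Mus counts, which limits the comparison of its levels.

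At day 14 the Arg1 calls were less firm. In Mus the rise against skin (2.65 ± 0.82, adjusted p = 0.0237) was lost with the replicate number as a block (adjusted p = 0.0921) and without day 0 replicate 1, 2 or 4 or day 14 replicate 3 or 4 (up to 0.0803). In Acomys the lower level (-0.86 ± 0.275, adjusted p = 0.0377) was lost without day 0 replicate 2 or 4 or day 14 replicate 1, 2 or 4 (up to 0.137). The higher level in Acomys skin than in Mus skin (1.74 ± 0.594, adjusted p = 0.0151) was lost without Mus day 0 replicate 2 (0.0624). Keratinocytes also carry arginase 1. Of 6 keratinocyte markers 3 rose and 2 fell in Mus at day 7, where 57.6% of all features passed. Their summed levels were 3017 to 3920 CPM in skin, 11030 to 20130 CPM at day 7 and 5282 to 14380 CPM at day 14. In Acomys 2 rose and 1 fell at day 7, a share near the 43.1% of all features. The sums there were 776.2 to 1441, 4546 to 5504 and 602.6 to 803.5 CPM, and the day 7 sums lay above skin in both species. None was at 0 counts, and the part of keratinocytes in the Arg1 values was not tested.

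Nos2, the inducible nitric oxide synthase that competes with arginase for arginine, rose in both species and far more in Mus. Mus libraries were at 0.798, 1.11 and 0.724 CPM in skin, at 95.1, 49.9, 42.2 and 72.1 CPM at day 7 and at 3.97, 2.33, 2.64 and 6.89 CPM at day 14. Acomys libraries held 14, 3, 3 and 16 counts in skin, 52, 59, 49 and 50 at day 7 and 28, 37, 30 and 27 at day 14. The day 7 change was 6.18 ± 0.49 in Mus (adjusted p = 3.5e-06) and 2.41 ± 0.382 in Acomys (adjusted p = 4.17e-05), a difference of -4.29 ± 0.748 (adjusted p = 0.000152). In Mus Nos2 therefore rose together with Arg1 at day 7. From day 7 to day 14 the fall passed for Nos2 (-3.999 ± 0.366, adjusted p = 0.000116) and not for Arg1 (adjusted p = 0.0607).

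The other 2 polarisation genes were measured in Mus alone and moved against each other. Chi3l3, the secreted chitinase-like protein Ym1, was at 0.798, 0.594 and 2.46 CPM in skin and at 13.3, 0.832, 6.17 and 5.05 CPM at day 7, from 8 to 34 counts per library in skin and 9 to 164 at day 7. The groups overlapped, and the rise (2.28 ± 0.769, adjusted p = 0.0265) was lost without day 0 replicate 1 or 2 or day 7 replicate 1 (adjusted p up to 0.0936). Retnla, the secreted resistin-like molecule alpha, was at 10.2, 33.9 and 14.27 CPM in skin, at 0.566, 3.70, 2.69 and 0.825 CPM at day 7 and at 40.9, 36.3, 1.70 and 8.69 CPM at day 14. All day 7 libraries were below skin (-3.31 ± 0.99, adjusted p = 0.016), a call lost without day 0 replicate 2 (0.0631).

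**Figure D3:**
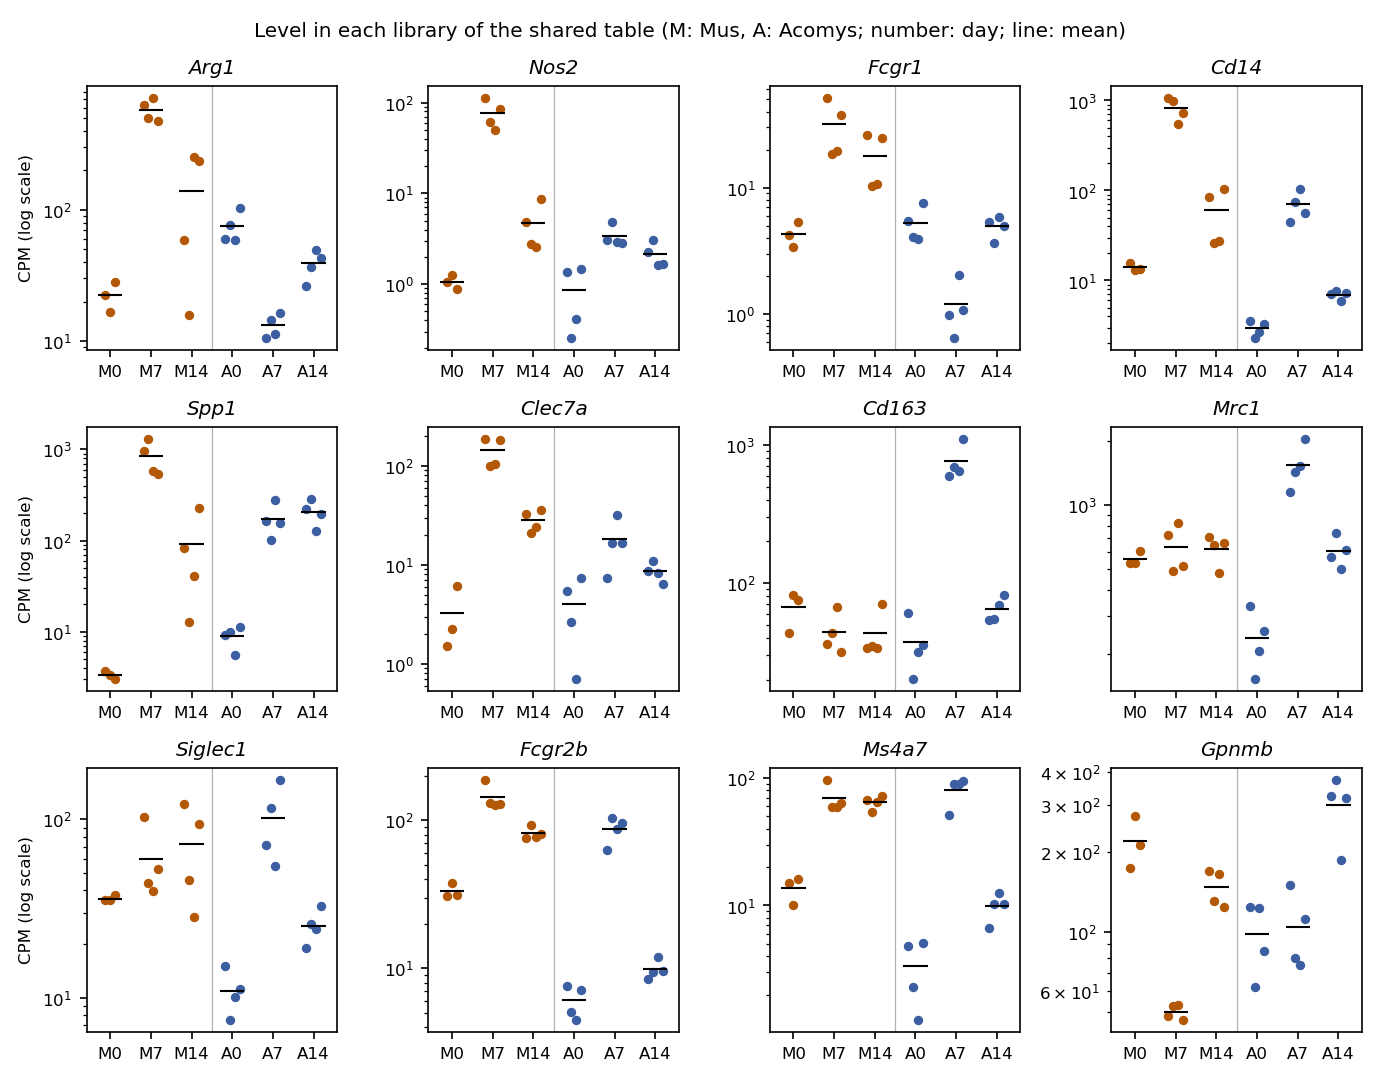
CPM on a log axis in each library of the shared table for 12 members, with Mus (M) left of the grey line, Acomys (A) right of it and the day after the letter; points are libraries and black lines group means. Within their species, Arg1 and Fcgr1 are highest at day 7 in Mus and lowest at day 7 in Acomys, and Cd163 is set apart in Acomys at day 7 alone.

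The difference of the day 7 changes passed for 22 of 34 members, 12 with the higher change in Acomys and 10 in Mus, with a median of 0.563, where 35.8% of all features passed. Of these calls 18 held in each fit that left out 1 library. The members higher in Acomys were Cd163, Timd4, Mrc1, Siglec1, Gpnmb, Ms4a7, Fcgr2b, Vsig4, Csf1r, Tyrobp, Cd68 and Mertk. Those higher in Mus were Arg1, Fcgr1, Nos2, Spp1, Clec7a, Cd84, Trem2, Itgam, Ly86 and Csf1. The Cd68 difference of 0.95 ± 0.366 (adjusted p = 0.0477) was lost in 10 of the fits that left out 1 library, namely without Acomys day 0 replicate 1, 2 or 3, Acomys day 7 replicate 2 or 4, replicate 2 or 4 of Mus skin, or replicate 2, 3 or 4 of the Mus day 7 group (adjusted p up to 0.112). Without the 3 Mus libraries poor in muscle transcripts 21 members passed, and neither Cd68 nor Tyrobp was among them. By day 14 the difference from the change in Mus passed for 8 members, 4 in each direction, where 25.1% of all features passed. Msr1, Gpnmb, Mrc1 and Cd163 were those with the higher change in Acomys and Arg1, Fcgr1, Cd84 and Lyz2 those with the lower. Of these, Cd163 (1.42 ± 0.481, adjusted p = 0.0359) was lost without Acomys day 0 replicate 2, 3 or 4, day 14 replicate 3 or 4, replicate 2 or 4 of Mus skin, or replicate 1, 2 or 3 of the Mus day 14 group (up to 0.0945). The Lyz2 difference of -1.25 ± 0.44 (adjusted p = 0.041) was lost without Acomys day 0 replicate 1 or 3, day 14 replicate 1, 3 or 4, replicate 2 or 4 of Mus skin, or replicate 1 or 4 of the Mus day 14 group (up to 0.116), and with both lysozyme rows summed it was -1.17 (adjusted p = 0.0104). Between day 7 and day 14, 15 members differed in their change, 8 with the higher change in Acomys and 7 in Mus, where 22.2% of all features passed.

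**Figure D4:**
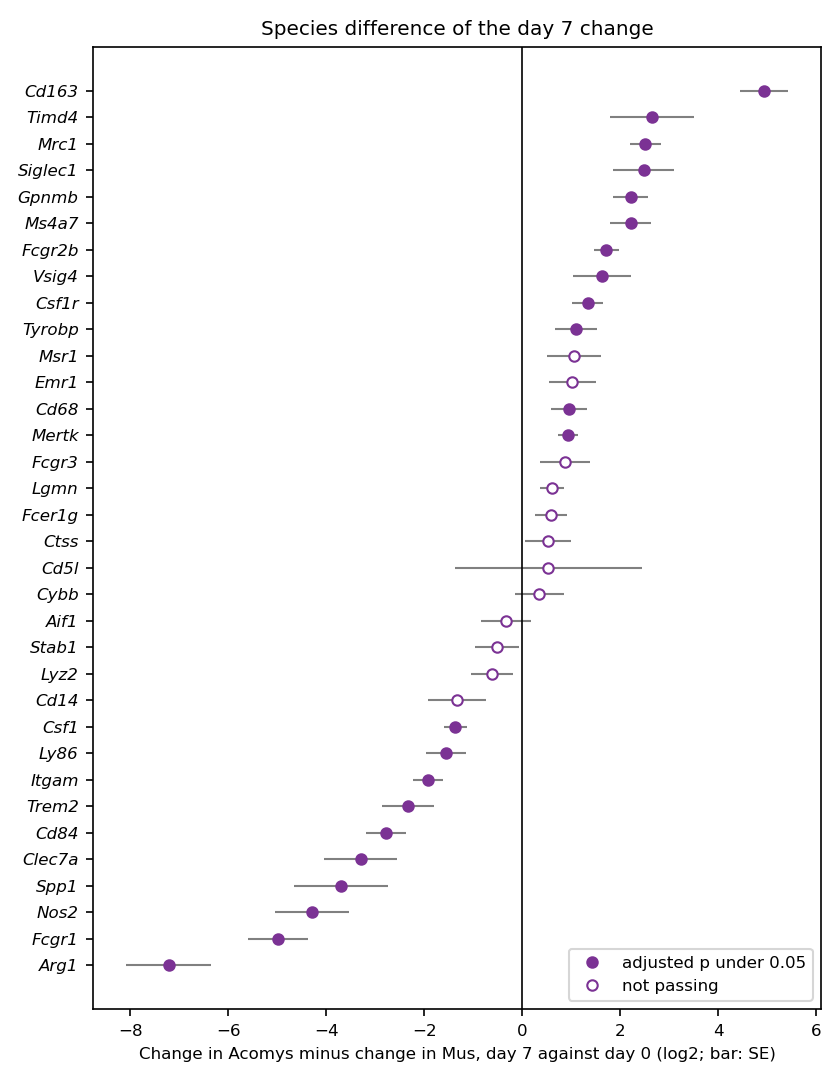
Difference of the log2 change from day 0 to day 7 (Acomys minus Mus) for the 34 members of the shared table, in order of size; bars are 1 SE and filled points passed at an adjusted p under 0.05. Arg1 (-7.21) and Fcgr1 (-4.98) lie at one end and Cd163 (4.93) at the other.

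Levels in the shared table were compared at each day as well. Such differences also hold any difference in assembled transcript length and in how reads were assigned in the 2 species, and the counts include the rows of Lyz2, Cd84 and Fcgr3 with the limits given above. In skin 19 of 34 members were lower and 6 higher in Acomys (median -0.812), where 65.7% of all features passed and 31.2% were lower. At day 7, 15 were lower and 6 higher (median -0.403), with 70.9% of all features passing and 34.9% lower. At day 14, 20 were lower and 6 higher (median -1.04), with 72.7% passing and 34.6% lower. At the 3 days 18 of 25, 21 of 21 and 23 of 26 calls held in each fit that left out 1 library. Emr1 was lower in Acomys at all 3 days (-3.36 ± 0.372, -2.33 ± 0.329 and -2.98 ± 0.34). Vsig4 was higher at day 7 (2.94 ± 0.353) and day 14 (2.62 ± 0.381), and Mertk at all 3 days, by 0.92 ± 0.154, 1.87 ± 0.143 and 0.80 ± 0.14. For Mertk the shared table held 48.3% of the Acomys counts and 76.9% of the Mus counts. Mrc1 was lower in Acomys skin (-1.24 ± 0.233, adjusted p = 8.37e-05) and higher at day 7 (1.27 ± 0.22, adjusted p = 2.54e-05).

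Between day 7 and day 14, 13 members fell and 3 rose in Mus (23.9% of features passed), and 15 fell and 5 rose in Acomys (26.2%). Of these 16 and 20 calls, 13 and 15 held in each fit that left out 1 library. The genes with the largest falls were Nos2, Cd14 and Spp1 in Mus, and Cd163, Cd14 (-3.33 ± 0.25), Fcgr2b and Ms4a7 in Acomys. The 3 that rose in Mus were Gpnmb (1.56 ± 0.138), Retnla and Mertk. The Retnla rise (3.47 ± 0.96, adjusted p = 0.026) was lost without day 7 replicate 1, 3 or 4 or day 14 replicate 1 or 2 (adjusted p up to 0.0788), and that of Mertk (0.37 ± 0.117, adjusted p = 0.0418) without any 1 of the day 7 replicates or day 14 replicate 1 or 4 (up to 0.11). Among those that fell in Mus, Chi3l3 was lost without day 7 replicate 1 or day 14 replicate 1, 2 or 3 (up to 0.0708). The 5 that rose in Acomys were Fcgr1 (2.08 ± 0.352), Arg1 (1.67 ± 0.285), Gpnmb (1.54 ± 0.246), Trem2 and Ly86, the last lost without day 14 replicate 2 (adjusted p = 0.0554). Of the falls in Acomys, that of Cd68 was lost without day 7 replicate 2 or day 14 replicate 1 or 4 (up to 0.0754), and that of Ctss without day 14 replicate 1 or 4 (up to 0.0513). The fall of Tyrobp was lost without day 7 replicate 2 or 3 or day 14 replicate 1, 3 or 4 (up to 0.0639), and that of Vsig4 without day 7 replicate 2 or day 14 replicate 1 or 3 (up to 0.0754).

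Other genes of the same pathways were taken from lists that hold no member. Beside the counts below, 57.6% of all features passed in Mus at day 7, 43.1% in Acomys at day 7 and 35.8% for the difference of these changes. All 17 genes of the Fc and ITAM signalling list rose in Mus at day 7 (median 2.81), led by the lectins Clec4e (9.49 ± 0.967) and Clec4d (8.76 ± 0.657). In Acomys 14 rose and 1 fell (median 1.99), led by Clec4d (7.87 ± 0.75) and Fcgr4 (5.74 ± 0.472). Fcgr4, an activating receptor for immunoglobulin G, therefore rose in Acomys at the day when Fcgr1 fell. The changes differed between the species for 10 of 17, with 9 lower in Acomys, among them Clec4e (-6.93 ± 1.06) and Treml2 (-6.30 ± 0.826). By day 14 there were 15 genes higher and none lower in Mus, and 12 higher and 1 lower in Acomys. At that day 45.9% of all features passed in Mus (23.2% higher) and 22.2% in Acomys (11.7% higher).

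Of 19 inflammatory activation genes, 15 rose and none fell in Mus at day 7 (median 2.89), with Nlrp3, the inflammasome sensor, at 8.83 ± 1.13 and Il1b, an interleukin matured through it, at 8.73 ± 0.88. In Acomys 13 of 17 tested rose and 3 fell (median 1.67), with Il1b at 7.57 ± 0.989 and the prostaglandin synthase Ptgs2 at 5.39 ± 0.652. The changes differed for 5 of 15, a share near the 35.8% of all features, and 4 of the 5 were lower in Acomys. They included the cytokine Tnf (-4.22 ± 0.6, adjusted p = 1.74e-05) and the chemokine Cxcl9 (-3.41 ± 1.23, adjusted p = 0.0373), the latter lost without Acomys day 0 replicate 1 or 4, day 7 replicate 1, 3 or 4, any Mus day 0 replicate, or replicate 1 or 4 of the Mus day 7 group. By day 14, 9 were higher and 1 lower in Mus, and 3 higher and 2 lower in Acomys. Of all features 45.9% passed in Mus at day 14 (23.2% higher) and 22.2% in Acomys (11.7% higher).

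The alternative activation and repair list had 10 genes that rose and 4 that fell in each species at day 7, of 18 tested in Mus and 19 in Acomys. In Mus the largest rises were those of Il10 (3.41 ± 0.591) and Tgfb1 (2.82 ± 0.312). The lectin Mgl2 (-3.37 ± 0.238) and the transcription factor Irf4 (-2.80 ± 0.328) fell in Mus. In Acomys the related lectin Clec10a rose (3.89 ± 0.34), and the chemokine Ccl17 fell (-3.27 ± 1.02, adjusted p = 0.0213), a call lost without day 0 replicate 4 or day 7 replicate 1 or 4 (adjusted p up to 0.0847). The species difference of the change was 5.45 ± 0.3 for Mgl2, 4.54 ± 0.519 for Clec10a and -2.19 ± 0.613 for the chemokine Ccl22. Dendritic cells also carry Mgl2, Clec10a, Irf4, Ccl17 and Ccl22. Of 11 dendritic and Langerhans cell markers 6 rose and 4 fell in Mus at day 7, with summed levels of 80.4 to 92.1 CPM in skin, 69.2 to 103.3 CPM at day 7 and 58.55 to 93.2 CPM at day 14. Among these Cd207, the langerin of Langerhans cells, fell (-3.77 ± 0.406), and so did Cd209a, a lectin of dendritic cells (-1.32 ± 0.268). Those that rose most in Mus were Ccr7 (3.39 ± 0.666) and Clec9a (1.79 ± 0.285). In Acomys 3 of 11 rose and 2 fell at day 7, a share near the 43.1% of all features, with sums of 149.4 to 200, 252.5 to 404.9 and 140.6 to 169.5 CPM. Cd209a rose there (3.05 ± 0.394), while Cd207 did not pass (-0.73 ± 0.471, adjusted p = 0.245), and the changes differed between the species by 4.35 ± 0.481 for Cd209a and 3.11 ± 0.66 for Cd207. Another marker of the list, Cd1d1, went the other way. In the shared table it was higher in Acomys than in Mus in skin (1.08 ± 0.163) and lower at day 7 (-2.49 ± 0.167). Flt3 (-1.66 ± 0.26), Clec9a (-1.29 ± 0.326), Siglech (-0.907 ± 0.381) and Zbtb46 (-0.593 ± 0.199) were also lower in Acomys at day 7, Flt3 in skin as well. Xcr1 (2.41 ± 0.208), Cd209a and Cd207 were higher in Acomys at day 7. No marker of this list was at 0 counts, and the part of dendritic cells in these values was not tested.

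Complement and phagocytic receptor genes were mostly higher: 13 of 15 rows of 14 genes (Dock2 has 2 rows) rose and 1 fell in Mus at day 7, and 11 of 14 rose and 1 fell in Acomys. C1qa and C1qb, chains of the complement initiator C1q, rose in Acomys by 3.501 ± 0.294 and 3.73 ± 0.359. In Mus the change of C1qa was 0.64 ± 0.233 (adjusted p = 0.0353) and did not hold without any 1 day 0 replicate or without day 7 replicate 1 or 4, and the species difference was 2.73 ± 0.352 (adjusted p = 5.39e-06). C1qb and C1qc rose in Mus as well, by 0.96 ± 0.231 (adjusted p = 0.00471) and 0.74 ± 0.232 (adjusted p = 0.0187). The receptor Cd300lf rose by 6.58 ± 0.702 in Mus, where Gas6, the bridging ligand of Mertk, fell (-1.20 ± 0.215). Itgax, the integrin CD11c, fell in Acomys (-1.12 ± 0.203), and its change differed from that in Mus by -4.02 ± 0.38.

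In the list of colony-stimulating factors and lineage genes 8 of 11 tested rose and 2 fell in both species at day 7. Csf2rb, a receptor chain for granulocyte-macrophage colony-stimulating factor, rose by 3.11 ± 0.22 in Mus. Its partner Csf2ra rose in both species, by 1.80 ± 0.202 in Mus and 3.25 ± 0.345 in Acomys. Il34, the other ligand of Csf1r, fell in Mus (-2.01 ± 0.139). The transcription factor Cebpa fell in both species, by -1.11 ± 0.165 in Mus and -1.28 ± 0.156 in Acomys. The species difference was 1.52 ± 0.384 for Csf2ra and -1.46 ± 0.254 for the transcription factor Cebpb. Of 12 monocyte recruitment genes 10 rose and 1 fell in Mus and 9 rose and 2 fell in Acomys, and the change of Cx3cr1, the fractalkine receptor, differed by -2.98 ± 0.289.

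Of 18 lysosome and lipid handling genes 8 rose and 4 fell in Mus at day 7, and 10 rose and 5 fell in Acomys. Ctsk, a collagen-degrading protease, fell in Mus (-1.84 ± 0.12) and rose in Acomys (3.14 ± 0.275), a difference of 4.89 ± 0.278 (adjusted p = 7.45e-11). Lipa, the lysosomal acid lipase, rose in Mus by 1.81 ± 0.196, and its change was lower in Acomys by 3.46 on the log2 scale (-3.46 ± 0.25). Lpl, the lipoprotein lipase, fell in both species, by -1.16 ± 0.197 in Mus and -2.67 ± 0.186 in Acomys.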

How the data were processed

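Total RNA of skin was sequenced as paired-end TruSeq libraries. Per the submitters' processing notes, FastQC 0.11.4, Trimmomatic 0.32, Bowtie2 and RSEM 1.2.28 were used, with build mm9. The deposited mouse and Acomys values are expected counts from the authors' processing, and were rounded to whole numbers here. The deposited shared table holds counts that the authors made for genes of both species. Which step made which table is not given in the sources used here. An Acomys pool treated with duplex-specific nuclease was not analysed here.

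Spike-in rows were removed. In R 4.3.3, edgeR 4.0.16 (limma 3.58.1) was run on each table with all groups: filterByExpr, TMM, glmQLFit and glmQLFTest, with Benjamini-Hochberg adjustment over 15423 (Mus), 36053 (Acomys) and 14514 (shared) features in 12 comparisons. The SE is the log2 change divided by the root of F. Common biological variation was 0.218, 0.213 and 0.186. The steps were tested on simulated data. No libraries were identical, and 0 sample columns went unused.

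The members and lists were chosen with earlier results of these data known. All 38 members are named, and of the other lists up to 2 genes called in each direction with the largest changes, plus defining markers beside a member. Replicate numbers come from the titles. Same-numbered Mus libraries deviated together from their group means between day 0 and day 7 (r from 0.12 to 0.163) and day 0 and day 14 (0.12 to 0.209). Between day 7 and day 14 this held in 3 of 4 pairs (-0.000126 to 0.598). The main fits nevertheless used group means only, so their p-values take no account of such pairs. A replicate block was run as an alternative in every comparison. Alternatives were RLE scaling, no filter, DESeq2 1.42.0, only the groups compared, a replicate block, each library left out, a minimum of 2-fold, features with a symbol, the shared table and plain totals. Choices added after seeing the data were leaving out 3 Mus libraries, summing both lysozymes and leaving out 3 members. Positions and sequences are from GENCODE vM21 (GRCm38), a later build than mm9.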

Additional observations from a re-analysis of the deposited data

Results flagged for a closer look

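In 10 of 175 groups of 4 libraries, 1 library lay farther from the others than Dixon's test allows; chance gives about 1 in 20 groups. In Mus, Fcgr2b was at 134.9 CPM in day 7 replicate 1 against 92.57 in the next library, Fcgr3 at 50.63 CPM in day 14 replicate 3 against 62.27, and Cd163 at 59.03 CPM in day 14 replicate 4 against 27.86. In Acomys skin, Cd84 was at 17.13 CPM in replicate 3 against 11.61, and the scavenger receptor Msr1 at 28.75 CPM in replicate 4 against 8.245. At day 7 in Acomys, the protease Ctss was at 291.7 CPM in replicate 1 against 486.1, and replicate 2 was highest for Cd5l (60.37 against 13.48 CPM) and Nos2 (4.062 against 3.069 CPM). At day 14 in Acomys, replicate 2 was highest for Tyrobp (64.28 against 36.58 CPM) and Mrc1 (696.5 against 464.1 CPM).

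The wound change differed between the species in 45 tests of the interaction in edgeR. All values are the log2 change in Acomys minus that in Mus. From day 0 to day 7, the positive differences were 1.339 for Csf1r, 0.9508 for Cd68, 2.214 for Ms4a7, 1.72 for Fcgr2b, 1.1 for Tyrobp, 4.934 for Cd163, 2.514 for Mrc1, 2.478 for Siglec1, 2.651 for Timd4, 1.627 for Vsig4, 0.9443 for Mertk and 2.216 for Gpnmb. Negative ones were -1.364 for Csf1, -1.92 for Itgam, -1.559 for Ly86, -2.774 for Cd84, -4.982 for Fcgr1, -3.298 for Clec7a, -2.33 for Trem2, -3.694 for Spp1, -7.211 for Arg1 and -4.289 for Nos2.

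From day 0 to day 14, the positive differences were 2.173 for Msr1, 1.422 for Cd163, 1.198 for Mrc1 and 2.191 for Gpnmb, and the negative ones -1.251 for Lyz2, -1.774 for Cd84, -2.142 for Fcgr1 and -3.594 for Arg1. Between day 7 and day 14, positive differences were 1.14 for Csf1, 1.943 for Itgam, 1.0 for Cd84, 2.84 for Fcgr1, 1.16 for Trem2, 3.469 for Spp1, 3.618 for Arg1 and 3.313 for Nos2. The negative ones were -1.351 for Csf1r, -2.918 for Ms4a7, -2.326 for Fcgr2b, -3.513 for Cd163, -1.315 for Mrc1, -2.291 for Siglec1 and -1.062 for Mertk. Those of Cd84 (lost without Acomys day 7 replicate 1, 2 or 3, day 14 replicate 1, 3 or 4, replicate 1 or 4 of Mus day 7 or replicate 2 or 3 of the Mus day 14 group) and Trem2 (lost without Acomys day 7 replicate 1, 3 or 4, day 14 replicate 2 or 4, replicate 3 or 4 of Mus day 7 or replicate 2 or 3 of the Mus day 14 group) reached adjusted p of 0.113 and 0.099. The Cd84 values rest on a shared row with 5.41% of the mouse counts.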

How the results depend on the processing

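Requiring more than a 2-fold change (glmTreat) lowered most counts. The features called fell to 2642, 1575 and 301 in Mus (day 7 and day 14 against day 0, then day 14 against day 7) and to 5707, 1346 and 2331 in Acomys. For the species at days 0, 7 and 14 they were 3037, 3528 and 3638, and for the differences of change 1062, 602 and 552. Members called were 13 and 5 in Mus at day 14 against day 0 and day 7, 8 and 7 in Acomys likewise, 9 and 12 between the species at days 0 and 14, and 14, 2 and 8 for the differences of change. For Acomys at day 7, 25653 features passed with no filter on low counts, 9220 among features with a symbol and 8969 in the shared table, where the number of features tested differs. Summing Lyz1 and Lyz2 turned the Lyz2 difference in skin to 0.198. Without TMM scaling the mean summed member level was 2087 in Mus skin, and for the shared table it was 1959, 6265 and 3976 CPM in Mus at days 0, 7 and 14 and 6583 and 3286 CPM in Acomys at days 7 and 14.

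RLE scaling, DESeq2 and a fit of only the groups compared kept all 24 counts within 1.5 times. Members called ranged, with each library left out in turn, from 29 to 31 in Mus and 29 to 30 in Acomys at day 7, and from 23 to 29 and 16 to 26 at day 14. With the replicate number as a block, 32 and 29 members passed in Mus at days 7 and 14, and apart from Arg1 at day 14 no call in Mus against skin was lost, while Siglec1 was gained at both days. From day 7 to day 14 in Mus, 17 members passed with the block: Retnla was lost (adjusted p = 0.0519), and Arg1 (0.0405) and Fcgr1 (0.0202) were gained. Of the differences of change, Tyrobp was lost (0.0557) and Cd14 gained (0.0335) at day 7, and Ly86 (0.0211) and Trem2 (0.0401) were gained at day 14. Between the species at day 7, Siglec1 was gained (0.0473). In Acomys 29 and 20 passed with the block. There r between same-numbered libraries ran from -0.199 to 0.25. It was over 0.1 in 0 of 4 pairs between days 0 and 7, 1 of 4 between days 0 and 14 and 2 of 4 between days 7 and 14. Whether the numbers pair the Acomys libraries is not stated by the labels. Depth limits members with fewer than 10 counts in at least 1 library: Lyz2, Fcgr1, Fcgr3, Timd4, Cd5l and Nos2 in Acomys, and Marco, Cd5l, Vsig4, Trem2, Nos2, Chi3l3 and Retnla in Mus, and the rows of Lyz2, Cd84 and Fcgr3 are not comparable between the species.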
